A study of Mus musculus with 9 samples.

Results

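The genes described here encode the liver's machinery for breaking down amino acids and for disposing of their nitrogen through the urea cycle. They were chosen by name as a list of 40 genes, and a gene counted as measured where the array's annotation tied a probe set to that gene alone. By this rule 36 of the 40 were measured, among 18193 genes represented in the series. Gls2, Sds, Sdsl and Amt were not matched to a probe set and were not analysed here. Where several probe sets named a gene (10 of the 36), the brightest of them on average represented the gene.

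Amino acids that are not needed for protein synthesis lose their amino group by transamination or deamination, and their carbon skeletons enter glucose, ketone or lipid metabolism. The ammonia released is toxic, and hepatocytes turn it into urea in a cycle that starts in mitochondria and ends in the cytosol. In liver, transcription of many of these enzymes is known to be raised by glucagon and glucocorticoids and restrained by insulin, which makes them candidates for a response to injected insulin.

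Liver RNA was measured on one-colour Affymetrix arrays from KKAy mice, a strain that carries the yellow agouti allele and becomes obese and diabetic. Mice in all 3 groups were of this strain and 8 weeks old, and there were 3 arrays per group. Untreated mice (labelled KKAy) have their treatment given as none, while the protocol describes controls injected with culture medium (DMEM), so the group may or may not have received an injection. Mice labelled Insulin received 100 µL of DMEM with insulin at 40 µg/mL intraperitoneally. Mice labelled BI received the same volume and total insulin concentration, of which 11% was biomineralized, that is, modified in place by a mineral. A difference between BI and the other groups therefore belongs to the mixture, not to the biomineralized part alone. The chow held 34% fat, 17% protein and 48% carbohydrates for every array but BI replicate 2. The growth protocol attached to that array speaks of rats, and no chow composition is recorded here for it. It is not stated if each array holds RNA of a single mouse or of pooled mice, nor how long after injection liver was taken. The p-values below measure only the spread between these arrays, which may be technical.

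Values are log2 signals as deposited, differences are log2 differences ± SE from limma fitted over all 45037 probe sets, and adjusted p-values are Benjamini-Hochberg values over all of these. Array medians lay between 6.11 and 6.30. All 36 genes lay well above them, with 9-array means from 8.59 (Ass1) to 15.58 (Bhmt). Levels of different genes were read by different probes and are not compared with each other. The 9 measured hepatocyte markers of 10, among them Alb and Ttr, had means of 14.72 to 15.61, as the liver label requires. Their summed linear signal was 332800 to 393300 in untreated arrays, 336500 to 369600 with insulin and 337500 to 387300 with BI, and no marker was at 0.

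No gene of amino acid breakdown or the urea cycle passed the threshold (limma, adjusted p under 0.05) in any of the 3 comparisons or in the F test over the 3 groups. Over all 45037 probe sets limma called 0 (0%) with insulin against untreated, 5 (0.0111%) with BI against untreated and 0 (0%) with BI against insulin, so few calls were made anywhere. Among the 36 genes, an unadjusted p under 0.05 was seen once, for Tat with BI. The share was 0% with insulin against untreated, 2.78% with BI against untreated and 0% with BI against insulin, beside 3.87%, 3.9% and 3.44% of all genes. In the F test it was 0 of 36, beside 3.81% of all genes. The 95% interval of the difference stayed inside a 2-fold change in either direction for 35 of 36 genes in each comparison with untreated liver, Ass1 being the exception, and for 34 of 36 in BI against insulin, where Ivd also reached beyond it. This precision goes with the level of the genes: among 3984 genes with a mean of 10 or more, 3757, 3723 and 3748 had such intervals in the 3 comparisons.

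**Figure D1:**
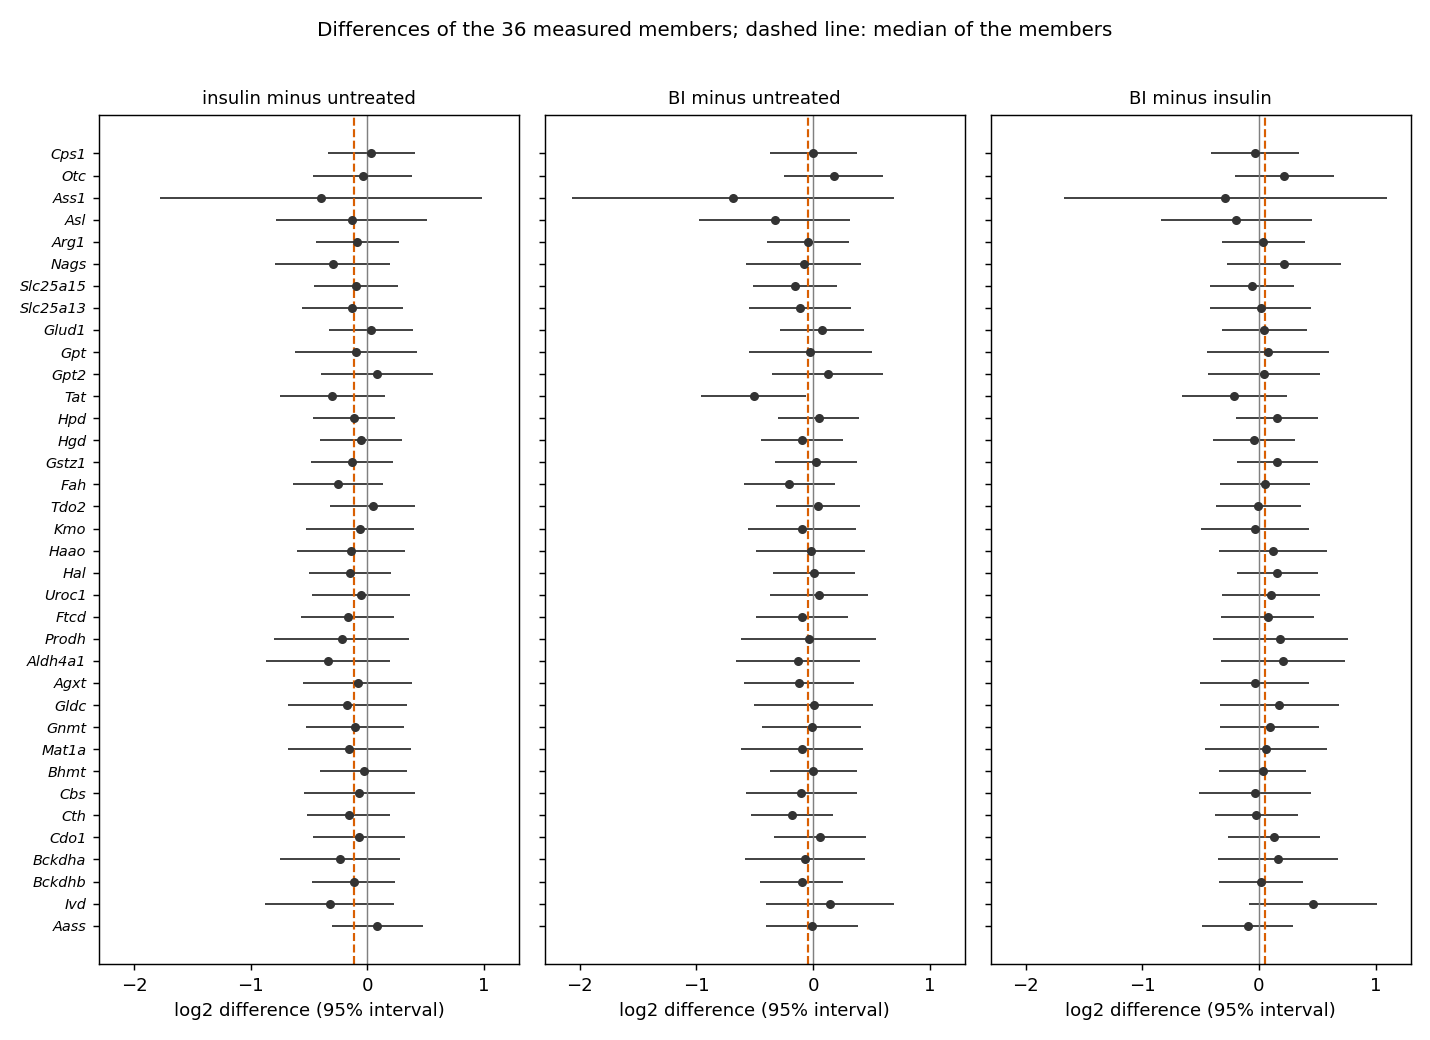
Log2 differences (x axis) of the 36 measured genes (y axis) with 95% intervals from limma, for insulin minus untreated, BI minus untreated and BI minus insulin. The dashed lines mark the medians of -0.11, -0.04 and 0.05, and Ass1 has the widest interval in each panel.

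With insulin, most of the pathway lay slightly below the untreated level. Of 36 genes, 31 had a negative difference (86.1%), beside 46.3% of all genes and 48% of genes with a mean of 10 or more, and their median was -0.11 beside 0.02 for all genes. The differences of 30 of 36 were within 0.25 of 0, as were those of 3564 of the 3984 genes with a mean of 10 or more. With BI against untreated 23 of 36 were negative (63.9%, beside 49.9% of all genes), the median was -0.04 and 33 were within 0.25 of 0, beside 3447 of the 3984. The count of negative differences was 28 of 36 when array medians were made equal. In BI against insulin 12 of 36 were negative (33.3%, beside 54.3% of all genes and 52.3% of those with a mean of 10 or more) and the median was 0.05. Both treated groups were compared with the same 3 untreated arrays, so their differences are not independent. By the representing probe sets, 22 genes were below the untreated mean in both, and 4 (Cps1, Glud1, Gpt2 and Tdo2) were above it in both. Another 9 were below with insulin only, and Aass was below with BI only.

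Single arrays weighed on these counts. Taking each array's median deviation of the 36 genes from their 9-array means, untreated replicates stood at 0.04, -0.04 and 0.11, insulin replicates at -0.01, -0.04 and -0.12, and BI replicates at -0.10, 0.07 and 0.03. The groups overlapped in this measure. Untreated replicate 2 lay among the insulin arrays, and BI replicate 1 stood apart from the other BI arrays, with 30 of 36 genes below their mean. Untreated replicates 1, 2 and 3 held the highest of the 9 values for 7, 10 and 9 of 36 genes (26 together). They held the lowest for 5, 3 and 1 of 36. Among genes with a mean of 10 or more, untreated replicates 1, 2 and 3 held the highest for 13.5%, 16.2% and 12.6%. They also held the lowest for 11.4%, 19.2% and 14.6% of those genes. Insulin replicates 2 and 3 and BI replicate 1 held the highest for none of the 36, beside 5.92%, 10.1% and 7.76%. BI replicate 1 held the lowest value for 9 of 36, beside 6.68%. Without BI replicate 1 only 15 of 36 genes were negative in BI against untreated (median 0.01), and without BI replicate 2 the count was 29 (median -0.08). For BI against insulin the median was 0.10 and 0.01, respectively. In insulin against untreated the count stayed between 27 and 31 and the median between -0.15 and -0.08 when any 1 array was left out.

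**Figure D2:**
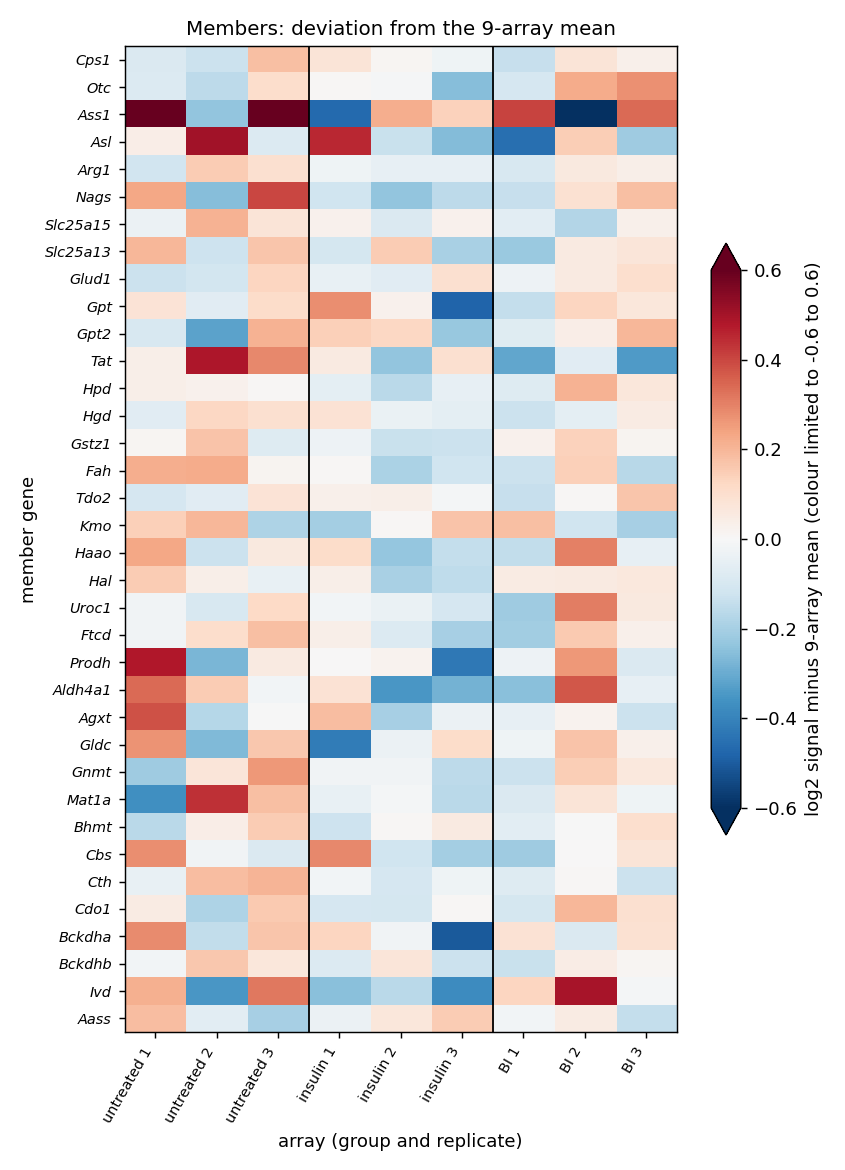
Deviation of each gene's log2 signal (rows) from its own 9-array mean on each array (columns, grouped as untreated, insulin and BI); red is above and blue below the mean. Insulin replicates 2 and 3 and BI replicate 1 are mostly blue (25, 27 and 30 of 36 genes below the mean), untreated replicate 3 and BI replicates 2 and 3 are mostly red (8, 7 and 12 below), and Ass1 reaches past both ends of the colour scale.

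Other measures moved across the same arrays. In insulin against untreated, 7 of 9 Kupffer cell and macrophage markers and 7 of 8 endothelial markers were positive (medians 0.35 and 0.32). The share over all genes was 53.7%. The hepatocyte markers had a median of -0.02. The other lists went both ways, with medians of 0.41 for lymphocyte, 0.01 for stellate cell, -0.13 for cholangiocyte and -0.30 for neutrophil markers. Lymphocyte markers had means of 2.86 to 6.24 and cholangiocyte markers of 3.16 to 6.72, beside array medians of 6.11 to 6.30. The median SE of a difference was 0.56 for lymphocyte, 0.57 for cholangiocyte and 0.61 for neutrophil markers. Red blood cell and exocrine pancreas markers had medians of -0.30 and -0.48. The summed linear signal of the endothelial markers was 5559 to 7515 in untreated arrays and 6775 to 8904 with insulin, that of the Kupffer list 13350 to 22990 and 16470 to 23550, so the ranges overlapped. The pathway's median in BI against insulin was 0.05. There, all 9 Kupffer markers (median -0.28), all 8 endothelial markers (median -0.33) and all 4 measured neutrophil markers (median -0.42) were negative. BI arrays lay wholly below insulin arrays for 2 of 9 Kupffer and 3 of 8 endothelial markers (22.2% and 37.5%). Of all genes, 54.3% were negative and 5.68% lay wholly below. Medians of the other lists were 0.03 for hepatocyte, 0.09 for lymphocyte, -0.18 for stellate cell and -0.20 for cholangiocyte markers. Those for red blood cell and exocrine pancreas markers were 0.18 and 0.32. With BI the summed signal was 13980 to 25490 for the Kupffer list and 5161 to 6781 for the endothelial list. That of the neutrophil list was 1563 to 9512 in untreated, 1398 to 4161 in insulin and 980.2 to 2706 in BI arrays. No marker of these lists was at 0, which does not show that each was detected, since no detection call was used. As a measure of RNA integrity, the Gapdh probe set at the 3' end exceeded that at the 5' end by 0.41 ± 0.20 in untreated, 0.52 ± 0.04 in insulin and 0.36 ± 0.08 in BI arrays (mean ± SD, n = 3). The untreated range of 0.28 to 0.65 took in the insulin range of 0.48 to 0.55 and overlapped the BI range of 0.26 to 0.42. The insulin and BI ranges did not overlap. For actin the same excess was larger and overlapped between all groups. The actin excess was 1.90, 1.80 and 2.11 in untreated, 2.23, 2.00 and 2.05 in insulin and 2.09, 1.96 and 1.99 in BI arrays. The part of the markers and of RNA integrity in the pathway's differences was not tested. In whole liver, fewer hepatocytes and less of an mRNA per hepatocyte cannot be told apart.

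In the urea cycle itself, the estimated differences of Cps1 and Arg1 were small. Cps1, which joins ammonia and bicarbonate in the entry step, had values of 15.03, 14.99 and 15.30 in untreated liver, 15.20, 15.13 and 15.09 with insulin, and 14.98, 15.20 and 15.15 with BI. Its groups overlapped completely, and the differences from untreated were 0.03 (95% interval -0.34 to 0.41) with insulin and 0.00 (-0.37 to 0.38) with BI. Arg1, which releases urea, stayed between 14.60 and 14.86 on all arrays, with differences of -0.08 and -0.05.

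Otc makes citrulline from ornithine and carbamoyl phosphate. It read 14.18, 14.10 and 14.37 in untreated arrays, 14.27, 14.25 and 14.01 with insulin and 14.16, 14.48 and 14.54 with BI. The top 2 values belonged to BI, but BI replicate 1 lay among the other arrays, and neither 0.18 ± 0.18 against untreated nor 0.22 ± 0.18 against insulin passed. A second bright Otc probe set gave 0.12 ± 0.18 with insulin, opposite in sign, and 0.30 ± 0.18 with BI, where it read 14.20, 14.45 and 14.32, above its untreated values of 14.11, 13.80 and 14.14. A dim one gave -0.21 ± 0.24 with insulin and -0.08 ± 0.24 with BI. Neither was apart from the representing probe set by more than their errors.

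Nags makes N-acetylglutamate, the compound that switches CPS1 on. Untreated arrays read 11.07, 10.59 and 11.24, insulin arrays 10.72, 10.60 and 10.68, and BI arrays 10.70, 10.93 and 11.02. The insulin arrays were close together and below 2 of the 3 untreated ones, while untreated replicate 2 was the lowest of all 9. The difference with insulin was -0.30 ± 0.21, and -0.49 without that replicate (unadjusted p 0.0353), and did not pass in either case.

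Ass1 and Asl make argininosuccinate and split it into arginine and fumarate. Ass1 had the widest spread of the pathway, with 9.23, 8.35 and 9.27 in untreated, 8.12, 8.81 and 8.73 in insulin and 8.99, 6.87 and 8.93 in BI arrays. A single low array, BI replicate 2, set the BI difference of -0.69 ± 0.59, which was 0.01 without it. Another probe set lists Ass1 together with a further gene and was outside the rule, so these values rest on the 1 probe set for Ass1 alone. Asl read 12.39, 12.86 and 12.27, then 12.80, 12.22 and 12.09, then 11.90, 12.50 and 12.14 in the untreated, insulin and BI arrays. Its groups overlapped, at -0.14 ± 0.28 with insulin and -0.33 ± 0.28 with BI.

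Of the mitochondrial carriers that serve the cycle, Slc25a15 exchanges ornithine for citrulline and Slc25a13 brings aspartate out of mitochondria. Slc25a15 values were 14.29, 14.54 and 14.40 in untreated liver, 14.35, 14.24 and 14.36 with insulin and 14.27, 14.15 and 14.36 with BI, the last group being lower by 0.15 ± 0.15 with overlapping arrays. Slc25a13 lay between 11.74 and 12.16, with differences of -0.13 and -0.11.

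By their representing probe sets, the genes that move amino groups between glutamate, alanine and 2-oxoglutarate had medians slightly above 0 in all 3 comparisons (0.03, 0.08 and 0.05). Glud1, glutamate dehydrogenase, had differences of 0.03 ± 0.16 with insulin and 0.08 ± 0.16 with BI, and the cytosolic and mitochondrial alanine transaminases Gpt and Gpt2 had -0.10 and 0.08 with insulin and -0.02 and 0.12 with BI. A second bright Glud1 probe set gave -0.04 ± 0.15 with insulin and -0.03 ± 0.15 with BI, opposite in sign. The other Gpt probe set gave 0.21 with insulin and 0.28 with BI. Those of Gpt2 gave -0.03 to -0.07 with insulin and -0.03 to 0.10 with BI. All were within their errors, so the signs in this group depended on the probe set. This group is described from 3 of its 4 genes, since Gls2 was not measured.

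The tyrosine pathway held the gene with the smallest p against untreated liver. Tat, tyrosine aminotransferase, takes the amino group off tyrosine in the step that limits its breakdown and is a classical target of glucocorticoids and cAMP. It read 13.31, 13.76 and 13.57 in untreated arrays, 13.33, 13.04 and 13.37 with insulin and 12.96, 13.21 and 12.94 with BI. Every BI array lay below every untreated one, while the insulin arrays overlapped both groups. With BI the level was 0.702 times that of untreated liver (-0.51 ± 0.19, 95% interval -0.96 to -0.06, limma unadjusted p 0.0311, adjusted p 0.999). The insulin difference was -0.30 ± 0.19, and BI against insulin -0.21 ± 0.19 (95% interval -0.66 to 0.24). In the F test over the 3 groups Tat had the smallest p of the 36 genes (0.0827, adjusted p 1.00). The BI difference ranged from -0.63 without untreated replicate 1 to -0.40 without untreated replicate 2 over the alternative settings. Many of these settings change only its error or leave out an insulin array, and could not move it.

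**Figure D3:**
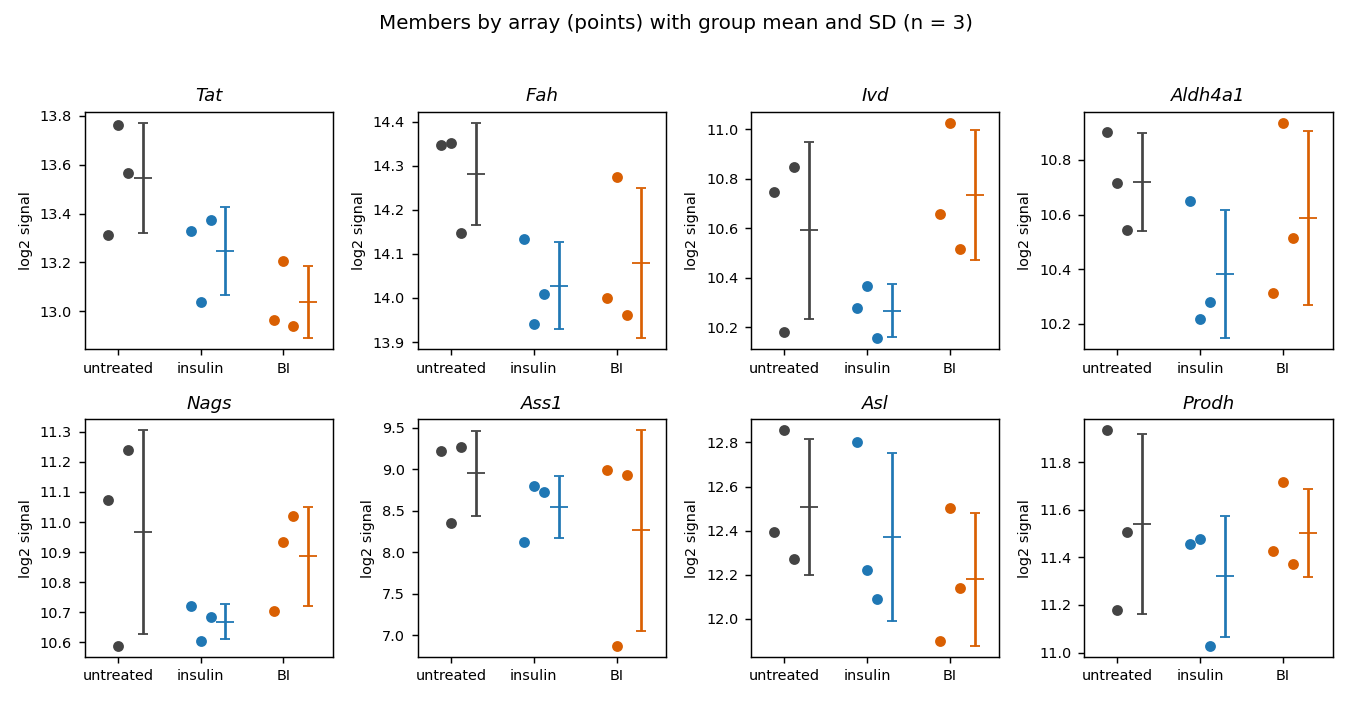
Log2 signal (y axis, scaled per gene) of Tat, Fah, Ivd, Aldh4a1, Nags, Ass1, Asl and Prodh on each array (points) in untreated, insulin and BI liver (x axis), with group mean and SD (bars, n = 3). For Tat the BI points of 12.94 to 13.21 sit below the untreated points of 13.31 to 13.76, and for Ass1 a single BI point at 6.87 sits far below the rest.

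Further along the same route, Fah cleaves fumarylacetoacetate, and its loss causes hereditary tyrosinaemia. Untreated arrays read 14.35, 14.35 and 14.15, insulin arrays 14.13, 13.94 and 14.01, and BI arrays 14.00, 14.27 and 13.96. All insulin arrays lay below all untreated ones, by a narrow margin, at -0.25 ± 0.17 (95% interval -0.64 to 0.13), and BI replicate 2 overlapped the untreated group (-0.20 ± 0.17).

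Hpd, the dioxygenase that makes homogentisate, was the other gene without overlap between insulin and untreated arrays. It read 14.92, 14.91 and 14.89 in untreated, 14.82, 14.72 and 14.83 in insulin and 14.80, 15.09 and 14.95 in BI arrays. The gap was small (-0.11 ± 0.15) and did not appear with BI (0.05 ± 0.15). Such separation, lower with insulin, was seen for 2 of 36 genes (5.56%) beside 3.48% of all genes, and lower with BI for Tat alone (2.78%) beside 4.52%. No gene lay wholly above the untreated arrays, beside 5.74% of all genes with insulin and 4.84% with BI. These counts take the representing probe sets. By a second probe set, Ivd and Uroc1 also lay wholly below with insulin, and Otc lay wholly above with BI.

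Gstz1 turns maleylacetoacetate into fumarylacetoacetate, with values of 13.27, 13.43 and 13.18 in untreated, 13.22, 13.12 and 13.12 in insulin and 13.28, 13.39 and 13.27 in BI arrays. All BI arrays were above all insulin ones, by 0.16 ± 0.15. Hgd, which opens the homogentisate ring, read 14.49, 14.69 and 14.65, then 14.65, 14.52 and 14.50, then 14.43, 14.50 and 14.61 in the 3 groups, with a BI difference of -0.10 ± 0.15 and overlapping arrays. All 5 genes of tyrosine breakdown were negative with insulin (median -0.13), and 3 of 5 with BI.

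The start sites of Tat and Ivd (isovaleryl-CoA dehydrogenase, of leucine breakdown) are shown because these genes had the smallest p of the pathway, Tat against untreated liver and Ivd in BI against insulin. The 250 bases before the annotated RefSeq start (GRCm38.p6) are printed 5' to 3' on the gene's strand, with matches to CCAAT or its reverse complement ATTGG in capitals. The Tat stretch is chr8:109990186-109990435 and the Ivd stretch chr2:118861744-118861993, both on the plus strand.
Tat: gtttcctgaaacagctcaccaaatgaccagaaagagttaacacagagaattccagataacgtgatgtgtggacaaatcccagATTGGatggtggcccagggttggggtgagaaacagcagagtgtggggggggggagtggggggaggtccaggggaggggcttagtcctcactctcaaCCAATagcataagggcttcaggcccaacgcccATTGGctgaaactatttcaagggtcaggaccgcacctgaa
Ivd: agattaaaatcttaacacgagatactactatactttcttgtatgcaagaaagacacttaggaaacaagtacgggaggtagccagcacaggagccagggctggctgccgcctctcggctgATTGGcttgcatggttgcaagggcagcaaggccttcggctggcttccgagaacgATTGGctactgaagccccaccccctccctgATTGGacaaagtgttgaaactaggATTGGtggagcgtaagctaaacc

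The CCAAT box is the recognition site of the factor NF-Y. Counted from the start site, its matches begin at -168, -72 and -40 in Tat and at -131, -77, -47 and -23 in Ivd. Of the 40 genes, 30 had a RefSeq entry of this kind, and 16 of the 30 (53.3%) held CCAAT on either strand, beside 37.5% of 27025 genes. The other motifs searched on both strands were TATAAA (13.3% of the pathway's genes, 14.3% of all), the cAMP-response half-site TGACG (13.3%, 19.8%), the glucocorticoid-response half-site AGAACA (3 of 30 genes, 18.2% of all), the HNF4A core CAAAGTC (3.33%, 4.33%) and the forkhead site TGTTTAC (0%, 3.54%). Neither Tat nor Ivd held any of these others in the stretch. A match describes letters only, and sites farther from the start were not searched.

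Among tryptophan-breaking enzymes, Tdo2, which opens the indole ring, had differences of 0.05 ± 0.16 with insulin and 0.04 ± 0.16 with BI. Its values stayed between 14.72 and 15.03. Its other probe sets, with means of 13.66 and 13.51, gave 0.11 ± 0.19 and 0.17 ± 0.20 with insulin. With BI they gave 0.07 ± 0.19 and 0.22 ± 0.20. In BI against insulin they gave -0.05 ± 0.19 and 0.06 ± 0.20, beside -0.01 ± 0.16 for the representing probe set. Kmo, which hydroxylates kynurenine, lay between 13.21 and 13.61, and Haao, which acts on 3-hydroxyanthranilate, between 12.58 and 13.11. Their groups overlapped in each comparison.

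Histidine breakdown showed the same small pattern in its 3 enzymes, with negative differences for insulin and values within 0.10 of untreated for BI. Hal, which releases ammonia from histidine, read 12.60, 12.48 and 12.40 in untreated, 12.48, 12.25 and 12.30 in insulin and 12.50, 12.50 and 12.51 in BI arrays. The BI values lay above all insulin values, at 0.16 ± 0.15, and within the untreated range. Ftcd, which passes the formimino group to folate, read 13.44, 13.57 and 13.65, then 13.50, 13.38 and 13.27, then 13.26, 13.62 and 13.50, giving -0.17 ± 0.17 with insulin. Uroc1, urocanate hydratase, had -0.05 with insulin and 0.05 with BI. Its dimmer probe set gave -0.29 ± 0.19 with insulin, all insulin arrays lying below all untreated ones, and -0.17 ± 0.19 with BI.

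The proline pathway comprised Prodh, which oxidizes proline, and Aldh4a1, which completes the conversion to glutamate. Aldh4a1 read 10.90, 10.71 and 10.54 in untreated, 10.65, 10.22 and 10.28 in insulin and 10.31, 10.94 and 10.51 in BI arrays. Insulin replicate 1 overlapped the untreated group, and the difference of -0.34 ± 0.23 (95% interval -0.87 to 0.19) did not pass. Prodh varied more between arrays of a group (11.93, 11.18 and 11.51 in untreated, 11.46, 11.48 and 11.03 in insulin, 11.43, 11.72 and 11.37 in BI), with -0.22 ± 0.25 with insulin and -0.04 ± 0.25 with BI.

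Of the genes of glycine and glyoxylate, Gldc, the decarboxylase of the glycine cleavage system, read 12.37, 11.83 and 12.26 in untreated, 11.68, 12.06 and 12.21 in insulin and 12.07, 12.27 and 12.13 in BI arrays. Its groups overlapped throughout (BI against insulin 0.18 ± 0.22). Agxt, which detoxifies glyoxylate in peroxisomes, and Gnmt, which uses glycine to take up spare methyl groups, had differences between -0.12 and -0.01 from untreated in both treated groups. Amt, another part of the cleavage system, was not measured.

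In methionine and cysteine metabolism all 5 genes were negative with insulin (median -0.07), and 3 of 5 with BI (median -0.10). Bhmt, which remethylates homocysteine with betaine, had differences of -0.03 ± 0.16 with insulin and 0.00 ± 0.16 with BI. Mat1a, which makes S-adenosylmethionine, had a wide untreated spread (13.48, 14.29 and 14.03) around treated values of 13.69 to 13.93. Cbs and Cth carry homocysteine to cysteine. Cbs had differences of -0.07 and -0.10, and Cth read 14.36, 14.59 and 14.61 in untreated, 14.39, 14.30 and 14.38 in insulin and 14.33, 14.41 and 14.27 in BI arrays. Untreated replicates 2 and 3 of Cth stood above every treated array while replicate 1 did not, and the differences were -0.16 ± 0.15 and -0.18 ± 0.15. Cdo1, which oxidizes cysteine on the way to taurine, read 14.36, 14.13 and 14.47, then 14.21, 14.21 and 14.32, then 14.21, 14.51 and 14.41, with BI against insulin at 0.13 ± 0.17.

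In the breakdown of branched-chain amino acids, Ivd had the smallest p of the pathway between the treated groups. Untreated arrays read 10.74, 10.18 and 10.85, insulin arrays 10.28, 10.37 and 10.16, and BI arrays 10.66, 11.03 and 10.52. The insulin arrays were low and close together, all BI arrays were above them, and the untreated arrays spanned both. BI against insulin was 0.47 ± 0.24 (95% interval -0.08 to 1.02, limma unadjusted p 0.0845, adjusted p 1.00). The second Ivd probe set, with a similar mean of 10.46, gave 0.12 ± 0.25 for the same comparison. For BI against untreated it gave -0.29 ± 0.25, where the representing one gave 0.14 ± 0.24. The direction of Ivd with BI therefore depended on the probe set. With insulin against untreated the representing one gave -0.32 ± 0.24. The second gave -0.41 ± 0.25, and all its insulin arrays lay below all untreated ones. Ivd, Gstz1 and Hal made up the 3 of 36 genes (8.33%) in which all BI arrays exceeded all insulin arrays, beside 4.2% of all genes, and none lay wholly below (0% beside 5.68%).

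Bckdha and Bckdhb form the decarboxylase of the branched-chain keto acid dehydrogenase, the committed step. Bckdha read 11.42, 10.98 and 11.30 in untreated, 11.26, 11.11 and 10.63 in insulin and 11.22, 11.05 and 11.22 in BI arrays. Its insulin difference of -0.23 ± 0.22 leaned on insulin replicate 3 and was -0.05 without it. Bckdhb read 12.99, 13.17 and 13.07, then 12.92, 13.08 and 12.88, then 12.87, 13.05 and 13.01, at -0.12 ± 0.15 and -0.10 ± 0.15. Aass, which starts lysine breakdown, was the 1 gene above untreated with insulin (0.09) and below it with BI (-0.01).

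Spread between arrays set what could be seen. The median SD within groups was 0.17 for the 36 genes, beside 0.16 for genes with a mean of 10 or more and 0.38 for all genes. Gstz1 had the smallest (0.09) and Ass1 the largest (0.79). The widest ranges over the 9 arrays after Ass1 (2.40) were those of Asl (0.96), Prodh (0.91), Ivd (0.87) and Tat (0.82). By the representing probe sets, Tat alone of these separated a treated group from the untreated one. The second Ivd probe set did so with insulin.

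Around these genes, 57 of 62 other genes of amino acid metabolism were measured, and none passed the threshold in any comparison. Negative differences numbered 36 of 57 with insulin, 20 of 57 with BI against untreated and 17 of 57 with BI against insulin (medians -0.03, 0.08 and 0.09), so the lean to lower values seen with insulin in the 36 genes was smaller here and did not appear with BI. Unadjusted p under 0.05 (limma) was reached by 2, 3 and 3 of the 57. That is 3.51%, 5.26% and 5.26%, beside 3.87%, 3.9% and 3.44% of all genes. Treated arrays lay wholly below untreated ones for 6 with insulin (10.5%) and 5 with BI (8.77%), beside 3.48% and 4.52%. They lay wholly above for 2 (3.51%) and 6 (10.5%), beside 5.74% and 4.84%. BI arrays lay wholly below insulin arrays for 4 (7.02%) and above for 7 (12.3%), beside 5.68% and 4.2%.

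With BI, Got1, the cytosolic aspartate transaminase, read 10.63, 10.28 and 10.11, below every untreated array (11.22, 11.25 and 10.81) and every insulin array (11.30, 10.64 and 11.02). The differences were -0.76 ± 0.25 from untreated (unadjusted p 0.0168) and -0.65 ± 0.25 from insulin (0.0321). Asns, which makes asparagine from aspartate and glutamine, read 11.27, 11.39 and 11.39 in untreated, 10.98, 10.80 and 11.13 in insulin and 10.92, 10.66 and 10.89 in BI arrays. All treated arrays were lower than all untreated ones, by 0.38 ± 0.17 with insulin and 0.53 ± 0.17 with BI (unadjusted p 0.0528 and 0.0142). None of these survived adjustment (adjusted p 0.999 to 1.00, limma).

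Higher values were seen too. Pccb, a subunit of propionyl-CoA carboxylase, which takes up the propionyl-CoA left by valine and isoleucine, read 10.64, 10.54 and 10.33 with BI, above the untreated values of 10.16, 9.72 and 9.85 (0.59 ± 0.20). Dao, D-amino acid oxidase, with levels near the array median, was at 6.93, 6.60 and 6.57 with insulin and 5.86, 6.21 and 5.97 in untreated arrays (0.69 ± 0.20, unadjusted p 0.00907). Mtr, methionine synthase, stood at 0.82 ± 0.33 with insulin, also near the median. Between BI and insulin, the mitochondrial glutamate carrier Slc25a22 was at -0.53 ± 0.20 and sulfite oxidase Suox at 0.69 ± 0.28. All of these had adjusted p of 0.999 to 1.00 (limma).

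**Figure D4:**
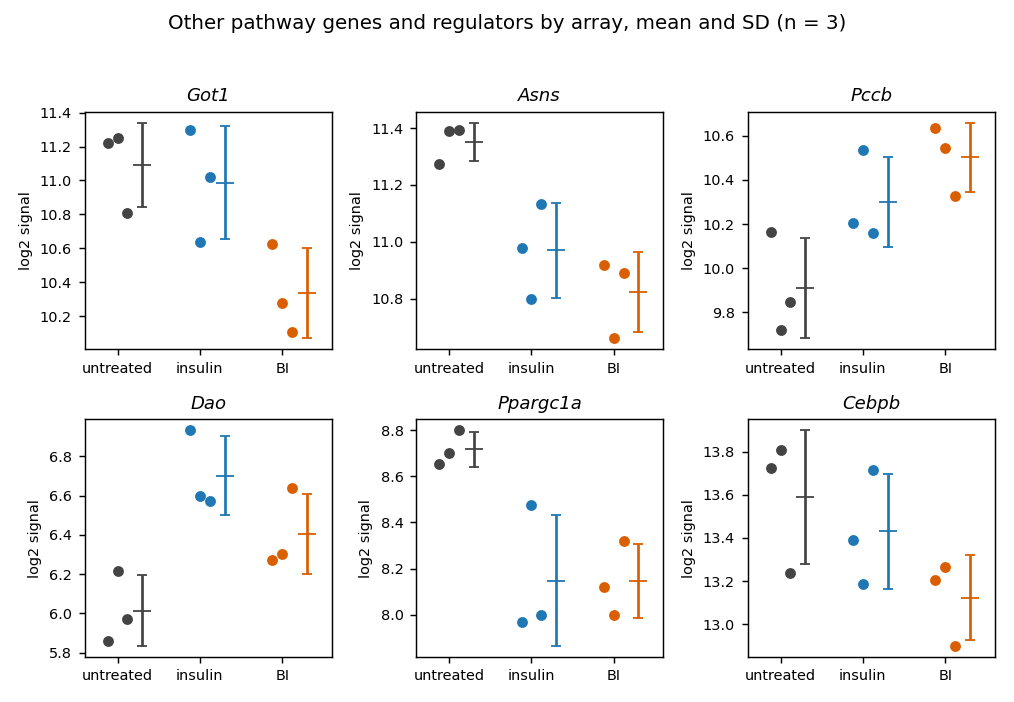
Log2 signal (y axis, scaled per gene) of the pathway genes Got1, Asns, Pccb and Dao and the regulators Ppargc1a and Cebpb on each array (points) in untreated, insulin and BI liver (x axis), with group mean and SD (bars, n = 3). The BI points of Got1 (10.11 to 10.63) and all treated points of Asns and Ppargc1a lie below their untreated points.

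Among 12 regulators of amino acid and fasting metabolism, all measured, Ppargc1a had the smallest p. It encodes the coactivator PGC-1 alpha, which fasting and glucagon induce. Untreated arrays read 8.65, 8.70 and 8.80, insulin arrays 7.97, 8.47 and 8.00, and BI arrays 8.12, 8.00 and 8.32. Every treated array was below every untreated one, by 0.57 ± 0.20 in both groups (limma unadjusted p 0.0206 and 0.0204, adjusted p 1.00 and 0.999). Since both differences use the same untreated arrays, they are not separate observations. In each comparison with untreated, 1 of the 12 (8.33%), Ppargc1a, lay wholly below, beside 3.48% and 4.52% of all genes. Of the 12, 0 lay wholly above, beside 5.74% and 4.84%.

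Cebpb, a transcription factor of the fasting response, read 13.73, 13.81 and 13.24 in untreated, 13.39, 13.19 and 13.71 in insulin and 13.21, 13.26 and 12.90 in BI arrays, with overlap and -0.47 ± 0.23 with BI. Atf4, which responds to amino acid shortage, was at 0.33 ± 0.20 with BI, and the forkhead factor Foxo1 at 0.19 ± 0.19 with insulin. The insulin receptor gene Insr was at -0.21 ± 0.16 with insulin and 0.23 ± 0.16 in BI against insulin, and Creb1, the cAMP-responsive factor, at 0.32 ± 0.23 in the latter. The remaining 6, among them the glucagon receptor Gcgr and the glucocorticoid receptor Nr3c1, differed from untreated by -0.15 (Ppara) to 0.07 (Gcgr).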

How the data were processed

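The authors deposited log2 signals for the probe sets of 3' IVT Affymetrix arrays. How probes were summarized was not given in the sources used here. Each array has a lowest value of 0 and the same 2% trimmed mean of the linear signal (500.004), so the values were used as deposited. Of 45101 probe sets, 64 controls were left out. Gene names were taken from the 2016 annotation of the array (34945 probe sets with 1 symbol, 932 with several, 9160 unnamed here), and 34741 were matched by gene ID to current RefSeq names. No detection call was used, and the number of arrays limits the precision.

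All 9 arrays entered one limma fit (version 3.58.1, R 4.3.3; lmFit and eBayes, group as the only factor, 6 residual degrees of freedom), with two-sided tests and Benjamini-Hochberg adjustment over 45037 probe sets. The fit was tested on simulated data. The members and lists were chosen with earlier results of these data known, and the background of genes with a mean of 10 or more was chosen after values were seen. Genes were named as follows: each comparison gives the 10 genes of smallest p as values, the 5 of widest range are given by array, and 3 genes are named from each other list. The alternatives tried were equal array medians, quantile normalization, a filter at the median level (6.04), a floor at 6, trend and robust moderation, array weights, only the 2 groups compared, averaging the probe sets of a gene, a block for the replicate number, and omitting single arrays.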

Additional observations from a re-analysis of the deposited data

How the results depend on the processing

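None of the 36 genes was called under any of the 18 alternatives in any comparison (smallest adjusted p 0.839, limma). The median difference of the genes stayed negative with insulin against untreated (-0.17 to -0.11, and -0.15 to -0.08 with 1 array left out) and positive for BI against insulin (0.01 to 0.07, and 0.01 to 0.10). For BI against untreated it was -0.07 to -0.04, and -0.08 to 0.01 with 1 array left out, where the count of negative genes ran from 15 to 29. In that comparison Ivd changed sign without untreated replicate 2 (-0.061), without BI replicate 2 (-0.0031) and with the mean of its probe sets (-0.074), and Ass1 did without BI replicate 2 (0.011). With 1 array left out, Ass1 ranged from -1.05 to 0.011 and Ivd from -0.061 to 0.27. Of the other values named by rank, none changed sign. For these genes the filter, the floor, the moderation, the replicate block and fitting only the groups compared could not change a difference. Nor could omitting an array of a group not compared.

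Over all probe sets, the 5 calls with BI against untreated became 6 with trend and robust moderation, 5 with equal array medians, 4 with quantile normalization or array weights, 1 with the filter at the median level and 0 with the floor at 6, with only the groups compared, or with the replicate number as a block, and 0 to 2 with 1 array left out. BI against insulin had 1 call with the filter and 0 to 1 with 1 array left out, and so had the F test. The cause was not tested. Same-numbered arrays did not deviate together (correlations of -0.034 to 0.036 over probe sets, and 2 of 9 arrays correlated best with their own number), so the numbers are not taken to pair samples. Every group holds the same replicate numbers, so a block for them can change the errors but not the differences. The medians of -0.11, -0.04 and 0.05 were therefore bound to stay as they were. With the block 0 probe sets were called in each comparison.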
